A study of Rattus norvegicus with 23 samples.

Results

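The cytochrome P450 (P450) genes of the rat lung were taken from an Agilent array by name. Every probe whose gene symbol was Cyp followed by a number, optional letters and an optional number was a member, whatever its signal. This gave 78 genes with 110 probes, of 25597 named genes on the array. The rats were male F344 Fisher rats aged 19 months when inhalation began. They breathed through the nose only, either filtered air (controls) or a TiO2 aerosol at 10 mg/m3, for 6 h per day on 5 days per week over 4 weeks. RNA of the accessory lobe of the lung was taken at the end of exposure (D0) or 28 days later (D28). Each rat had 1 array: 6 controls and 5 exposed rats gave the D0 arrays, and 6 of either kind those of D28. The source label of the exposed D28 arrays reads day 0, and their titles and descriptions, which read day 28, were followed.

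P450 enzymes are haem proteins of the endoplasmic reticulum or the mitochondrion that insert an oxygen atom into their substrates, with electrons passed on by a reductase. Some members of the Cyp1, Cyp2, Cyp3 and Cyp4 families act on inhaled or ingested foreign compounds, others make epoxides and hydroxy acids from arachidonic acid, and others build or break down cholesterol, bile acids, steroid hormones, retinoic acid and vitamin D. In the lung, the non-ciliated secretory (club) cells of the bronchioles and the type II pneumocytes are known for their P450 enzymes. Cyp1a1 is the classic target gene of the aryl hydrocarbon receptor (AhR), which is bound by polycyclic aromatic compounds.

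The results turn on a few genes whose probes and promoters are printed here so that the measured transcript can be identified. The 4 probes below are 60 bases long and lie at base 1011 of the Cyp4b1 transcript, base 826 of Cyp2a3, base 715 of Cyp2b21 and base 1207 of Cyp2e1. In the rn4 build that the array files use, the Cyp4b1 probe is at chr5:135922246-135922305 on the minus strand, the Cyp2b21 probe at chr1:81670825-81670884 on the minus strand and the Cyp2e1 probe at chr1:200927736-200927795 on the plus strand. The Cyp2a3 probe covers chr1:81948552-81950011 on the plus strand, a stretch of 1460 bases, so that it spans an intron. They are given from 5′ to 3′ in lower case.
Cyp4b1 probe: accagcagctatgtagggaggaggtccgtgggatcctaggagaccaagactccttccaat
Cyp2a3 probe: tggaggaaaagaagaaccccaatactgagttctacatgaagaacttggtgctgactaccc
Cyp2b21 probe: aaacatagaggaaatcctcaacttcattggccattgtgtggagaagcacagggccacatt
Cyp2e1 probe: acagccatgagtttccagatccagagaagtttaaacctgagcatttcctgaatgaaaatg

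Promoters came from RefSeq in the GRCr8 build and are shown for Cyp4b1 and Cyp2s1, which were lower in exposed rats, and for Cyp2a3 and Cyp2b21, which were lower in the later controls. Of the 78 genes, 62 had a promoter in the reference, with 70 start sites. The others were Cyp11b1, Cyp11b2, Cyp11b3, Cyp17a1, Cyp19a1, Cyp1a1, Cyp24a1, Cyp2a2, Cyp2ab1, Cyp2ac1, Cyp4a1, Cyp4f17, Cyp4f4, Cyp4v3, Cyp7a1 and Cyp7b1. Each line gives the 250 bases before the start, which lie at chr5:134393117-134393366 on the minus strand for Cyp4b1, chr1:90453074-90453323 on the minus strand for Cyp2s1, chr1:91299334-91299583 on the plus strand for Cyp2a3 and chr1:91042753-91043002 on the minus strand for Cyp2b21. Capitals mark any match, on either strand, to the core of the xenobiotic response element of AhR (GCGTG), the E-box of clock factors (CACGTG) or the receptor core AGGTCA, which retinoid-related orphan receptors, Nr1d1 and other nuclear receptors bind. On the opposite strand AGGTCA reads as TGACCT.
Cyp4b1 promoter: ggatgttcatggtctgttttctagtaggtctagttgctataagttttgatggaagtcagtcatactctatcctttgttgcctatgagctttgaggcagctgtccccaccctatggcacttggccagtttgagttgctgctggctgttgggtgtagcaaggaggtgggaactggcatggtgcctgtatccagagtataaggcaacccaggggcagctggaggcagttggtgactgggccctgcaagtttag
Cyp2s1 promoter: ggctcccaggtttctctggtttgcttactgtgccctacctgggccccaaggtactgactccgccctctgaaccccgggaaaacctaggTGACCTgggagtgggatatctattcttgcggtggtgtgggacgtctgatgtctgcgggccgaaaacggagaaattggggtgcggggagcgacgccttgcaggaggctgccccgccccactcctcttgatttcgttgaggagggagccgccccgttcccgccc
Cyp2a3 promoter: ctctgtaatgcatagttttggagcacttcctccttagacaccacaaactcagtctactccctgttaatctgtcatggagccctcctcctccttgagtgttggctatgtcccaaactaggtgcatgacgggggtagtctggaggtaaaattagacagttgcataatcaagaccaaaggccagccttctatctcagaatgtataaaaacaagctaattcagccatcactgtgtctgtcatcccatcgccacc
Cyp2b21 promoter: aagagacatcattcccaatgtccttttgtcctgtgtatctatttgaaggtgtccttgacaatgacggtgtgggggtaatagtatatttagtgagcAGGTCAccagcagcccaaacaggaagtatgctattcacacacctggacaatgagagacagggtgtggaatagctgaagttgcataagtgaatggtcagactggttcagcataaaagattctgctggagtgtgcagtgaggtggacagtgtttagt

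No match to these 3 motifs was in the Cyp4b1 and Cyp2a3 windows, and Cyp2s1 and Cyp2b21 each held 1 match to the receptor core. The 250 bases of Cyp2s1 were 62.4% G and C with 15 CpG dinucleotides, whereas those of Cyp4b1 were 51.2% G and C with 0 CpG. Over the P450 promoters, the xenobiotic response element core was in 18 of 70 (25.7%), against 25.9% of all 33469 promoters of the same length. The receptor core was in 21 of 70 (30.0%), against 14.1% of all promoters. The E-box was in 1 of 70 (1.43%), that of Cyp2j4, against 5.59%. These letters are a description of the windows and do not show that a factor binds there.

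The arrays had between 69.5% and 77.9% of their spots well above background by the scanner software. They lay on 5 slides with 1 to 7 arrays. Control D28 replicate 4 was alone on its slide and was the only array read with a later version of the software. The lung markers were in place: all 8 genes of the type II pneumocyte list and all 6 of the type I list were well above background on all arrays, and 1 of 8 hepatocyte genes was. In whole lung RNA, fewer cells of a type and less RNA per cell cannot be told apart. Signals below are log2 of the processed signal after quantile normalization, and a difference of 1 is a fold change (FC) of 2.

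Of the 78 P450 genes, 36 were well above background on all 23 arrays, 31 on some arrays and 11 on none, and 68 passed the filter on dim probes and entered the tests. A gene counted as well above background on an array when any of its probes was marked so, while its signal is the mean of all its probes kept. Values of some of the 36 therefore include dim probes. Of the 2 probes of Cyp27b1, Cyp39a1 and Cyp4f5, 1 was well above background on 0 arrays, and 1 of the 2 of Cyp2g1 on 1 array. The airway group, named for Cyp2a, Cyp2b, Cyp2e, Cyp2f, Cyp2s and Cyp4b enzymes that act on foreign compounds, had 8 of 12 genes well above background throughout. The arachidonic and fatty acid group (Cyp2c, Cyp2j, Cyp2u, Cyp4a, Cyp4f, Cyp4v, Cyp4x) had 11 of 27. Of the AhR-inducible Cyp1 family, none of 3 genes reached it on all arrays. The sterol and bile acid group had 4 of 7, the steroid hormone group 2 of 7, the retinoid and vitamin D group 3 of 6 and the other xenobiotic group (Cyp2d, Cyp2g, Cyp3a) 5 of 11. Cyp7a1, the rate-limiting enzyme of bile acid synthesis in the liver, Cyp19a1, the aromatase that makes oestrogens, and Cyp3a2, a major liver enzyme, were well above background on no array.

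**Figure D1:**
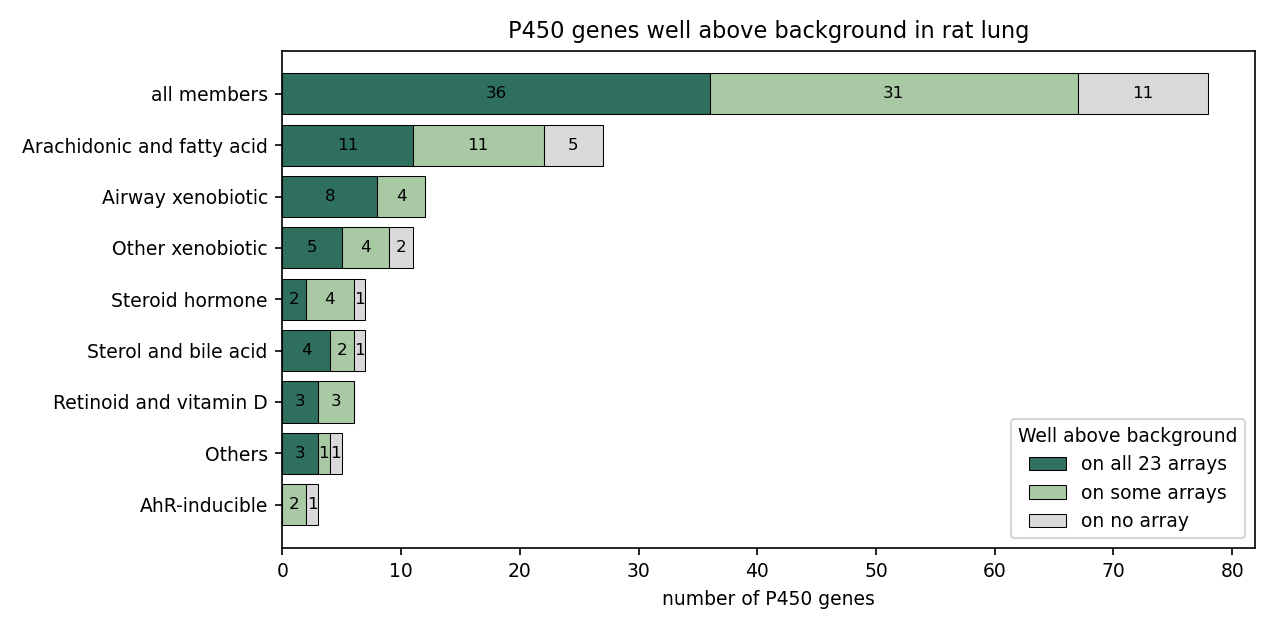
Number of P450 genes (horizontal axis) in each role group and in all, split by whether the scanner software marked them well above background on all 23 arrays, on some or on none. Of 78 genes, 36 were detected on all arrays and 11 on none, and the airway group had 8 of 12 detected throughout.

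Cyp1a1 was not well above background on any of the 23 arrays and did not pass the filter, so that it has no test. Without the filter its log2 signal had a lowest, median and highest value of 1.59, 1.63 and 2.62. Cyp1a2, its relative known from the liver, was well above background on 1 of 23 arrays and also failed the filter. Cyp1b1, an AhR target found outside the liver, was well above background on 22 arrays and had 3 probes. Its log2 difference between exposed and control rats was -0.34 (standard error 0.23) on D0 and -0.18 on D28, with adjusted p of 0.672 and 0.856. The 3 probes differed in sign on D0, and the probe detected on most arrays, 21, gave 0.22.

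Among the other genes of the AhR pathway, 1 of 10 was called on D0 and none on D28, against 1.79% and 0.756% of all genes. Over the mean of both days 2 of the 10 had an adjusted p below 0.05, both lower, against 6.55% of all genes. Ahrr, the repressor that AhR induces, was lower in exposed rats on D0, with a mean log2 signal of 3.15 against 4.41 in controls and an adjusted p of 0.0334. It was well above background on none of the 5 exposed arrays and on 4 of the 6 control arrays of D0. The measured means differed 2.4-fold, which is not a lower limit, as these signals were near background. The AhR receptor gene itself had a difference of 0.19 on D0 (adjusted p = 0.717) and -0.21 on D28 (adjusted p = 0.617).

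The first question of the design is what the aerosol changed at the end of exposure. A gene was called when its adjusted p was below 0.05 over all 23030 genes tested and its FC was at least 1.5. On D0, 1 of 68 P450 genes was called, Cyp4b1, against 1.79% of all genes tested. By adjusted p alone there were 2, Cyp4b1 and Cyp2s1, against 2.86%. Both were lower in exposed rats. With 1 or 2 of 68, the P450 genes were near the share of all genes. The median difference over the 68 genes was -0.008, near the -0.001 of all genes, and 57 of the 68 differed by less than 0.5 on the log2 scale. In 5 of the 68, exposed and control arrays did not overlap (Cyp4b1, Cyp2s1, Cyp2a3, Cyp26a1 and Cyp51), against 4.3% of all genes.

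After 28 days without exposure, 1 of 68 P450 genes was called, Cyp2c23, which was higher in exposed rats, against 0.756% of all genes. By adjusted p alone there were again 2, Cyp2c23 and Cyp2s1, against 1.32%. Cyp2s1 was the only P450 gene whose exposed and control arrays did not overlap on D28, against 1.22% of all genes. Over the mean of both days, which uses the same arrays again, 4 of 68 were called against 1.87%, and 6 passed by adjusted p alone against 6.55%. The difference of the exposure effect between the days was called for 0 of 68 P450 genes by limma, against 0.0304% of all genes. At an unadjusted p below 0.05 there were 3 of 68, against 792 of all 23030 genes. Under the other settings tried 0 were called as well.

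**Figure D2:**
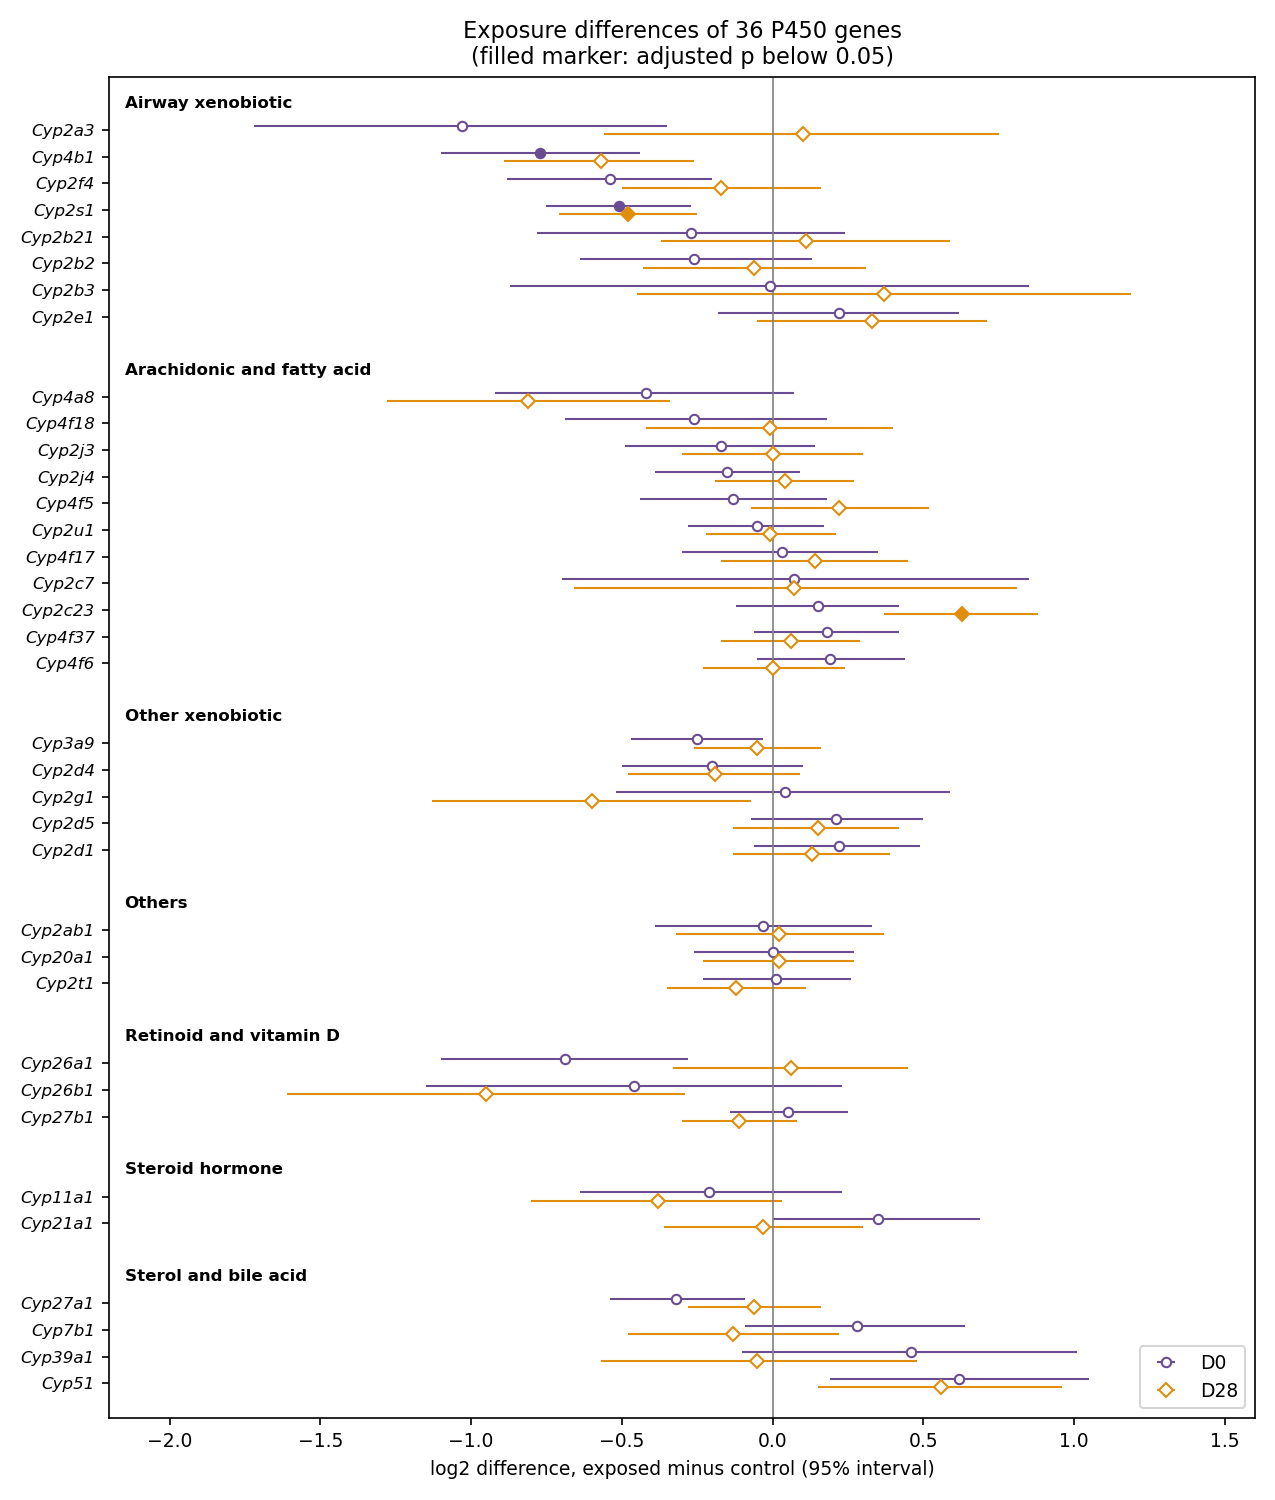
Log2 difference between exposed and control rats (horizontal axis, points with 95% intervals) on D0 (circles) and D28 (diamonds) for the 36 P450 genes well above background on all arrays, in role groups. Filled markers have an adjusted p below 0.05: Cyp4b1 and Cyp2s1 on D0, Cyp2c23 and Cyp2s1 on D28. Other intervals that leave out 0 did not pass the adjustment. Values are means over the probes of a gene, and those of Cyp4a8 and Cyp2g1, among others, include probes near background.

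Cyp4b1, an enzyme of lung epithelium that activates furans and aromatic amines, was the P450 gene called on D0. Its log2 signals in control rats had a lowest, median and highest value of 13.05, 13.43 and 13.57. The 5 exposed rats had 12.93, 12.67, 12.55, 12.43 and 12.49. Every exposed array of D0 was below every control array. The difference was -0.77 (standard error 0.16, n = 6 and 5), a 1.70-fold lower signal with an adjusted p of 0.00741. Its 2 probes gave -0.68 and -0.86.

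On D28 the control rats had 13.11, 13.86 and 14.13 for Cyp4b1, as lowest, median and highest value, and the exposed rats 12.93, 13.21 and 13.63. The groups overlapped through the lowest control array, replicate 4, while the other 5 control arrays were above all exposed ones. The difference was -0.57 (standard error 0.15), with an adjusted p of 0.0603. Without that control array, the same that was alone on its slide, it was -0.71 with an adjusted p of 0.00622, and without exposed D28 replicate 3 it was -0.65 with an adjusted p of 0.0345. It was also below 0.05 in 7 of 12 other settings of the fit (0.00273 to 0.0406). Within slides that held both groups, with 1 or 2 arrays of each group, Cyp4b1 was lower in exposed rats on each of 4 slides on D0 (-1.0 to -0.50) and each of 3 on D28 (-0.87 to -0.67). The mean over both days was -0.67 (adjusted p = 0.000466).

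Cyp2s1, a P450 of epithelia outside the liver, was lower in exposed rats on both days by a smaller amount. The control rats of D0 had 11.25, 11.40 and 11.83 (lowest, median, highest), and the exposed rats 11.12, 10.87, 11.14, 10.57 and 11.01. On D28 the control rats had 11.49, 11.67 and 11.88, and the exposed rats 11.03, 11.17 and 11.37. All exposed arrays lay below all control arrays of the same day. The difference was -0.51 on D0 (standard error 0.11, adjusted p = 0.0137) and -0.48 on D28 (standard error 0.11, adjusted p = 0.0301), and both are under the FC limit. Its change differed by 0.03 between the days, with an adjusted p of 1. On D28 the adjusted p was above 0.05 when any of control replicates 1, 3, 4 and 6 or exposed replicates 1, 3, 5 and 6 of D28 was left out (differences of -0.48 to -0.44, adjusted p from 0.0502 to 0.0698). With only the arrays of the day in the fit, the adjusted p was 0.0687 on D0 and 0.0868 on D28. With the replicate block it was 0.0791 on D28.

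Cyp2f4 and Cyp2a3 were also measured lower in exposed rats of D0, and neither passed the test. Cyp2f4, a club cell enzyme known for activating naphthalene, is given here although it was chosen after its values were seen. Its control rats of D0 had 13.53, 13.86 and 13.99, and its exposed rats 13.62, 13.43, 12.88, 13.09 and 13.36, with 4 of 5 exposed arrays below all controls. The difference was -0.54 (standard error 0.16, adjusted p = 0.0846) on D0 and -0.17 on D28 (adjusted p = 0.786). The adjusted p of D0 was below 0.05 in 5 of 12 other settings (0.0238 to 0.0484), and without exposed D28 replicate 5, which enters through the shared variance (0.0469).

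Cyp2a3, a P450 of the nose and lung that acts on nitrosamines and coumarin, had 9.60, 9.80 and 10.39 in control rats of D0. The exposed rats had 9.41, 7.98, 8.51, 8.94 and 9.42, all below the controls. The difference was -1.03 (standard error 0.33, 95% interval -1.72 to -0.35), and its adjusted p of 0.107 missed the threshold. It was 0.0122 with array quality weights and 0.0493 without exposed D28 replicate 5. On D28 the control rats had 7.26, 7.93 and 8.91 and the exposed rats 7.42, 7.96 and 9.34, so that the groups overlapped. That difference was 0.10 (95% interval -0.56 to 0.75, adjusted p = 0.963). The change of the effect between the days, 1.13, had an adjusted p of 1.

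**Figure D3:**
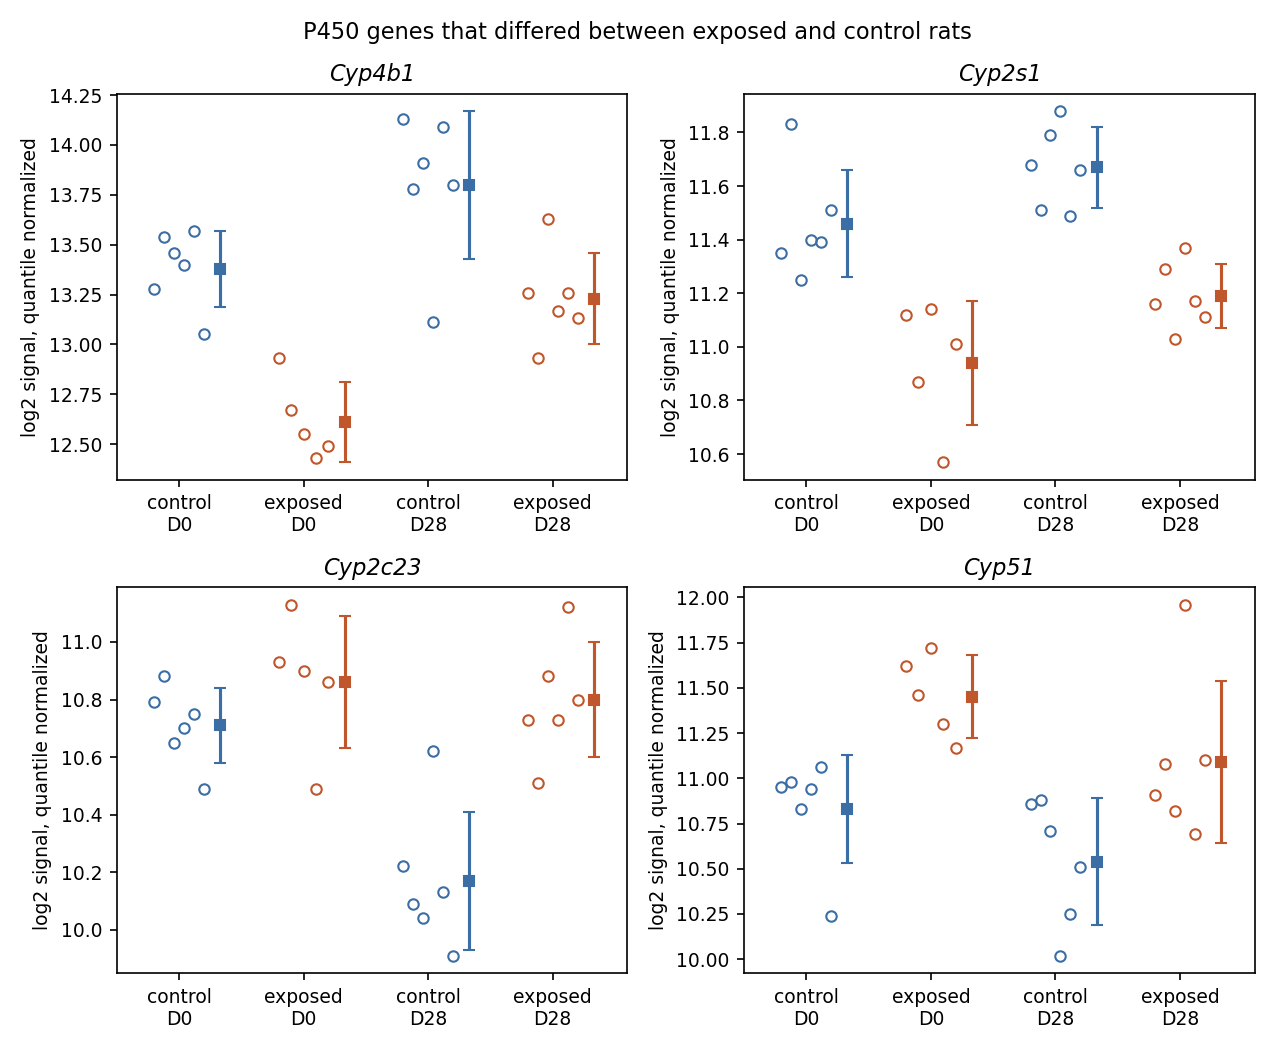
Log2 quantile normalized signal (vertical axis, a separate scale for each gene) of Cyp4b1, Cyp2s1, Cyp2c23 and Cyp51 on every array of the 4 groups (open circles), with the group mean and SD (squares with bars). Cyp4b1 and Cyp2s1 were lower in exposed rats of D0 on every array, and Cyp2c23 had a mean of 10.17 in control rats of D28 against 10.71 in those of D0.

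Over the 12 measured genes of the airway group, exposure on D0 went with a lower signal in 9 and a higher one in 3, with a median difference of -0.25, and 5 were lower and 7 higher on D28, with a median of 0.06. All genes tested had medians of -0.001 and -0.005. Markers of airway cells were measured on the same arrays. Of the 8 club cell markers, 7 were well above background on all arrays and none passed the adjusted p on D0 or D28, with 5 and 3 at an unadjusted p below 0.05. In exposed rats 4 of them were higher and 4 lower on D0, and 2 were higher and 6 lower on D28. Their mean level ranged from 11.56 to 11.90 in controls and 11.36 to 11.93 in exposed rats on D0, and from 11.38 to 11.85 and 11.11 to 11.51 on D28. All 7 ciliated cell markers were lower in exposed rats on both days and none passed, with 3 on each day at an unadjusted p below 0.05. Over the mean of both days, 7 of 7 ciliated markers had an unadjusted p below 0.05. Of these, 2 passed, Rsph1 (-0.43, adjusted p = 0.0101) and Ccdc39 (-0.39, adjusted p = 0.0255), both lower. Of the genes listed for club cells, Sec14l3 (-0.35, adjusted p = 0.00729) and Scgb3a1 (-0.54, adjusted p = 0.0179) also passed, both lower. Whether these genes mark club cells alone was not tested. Of the 8 club cell markers, 5 were lower and 3 higher over that mean. The mean level of the ciliated list was 9.47 to 9.67 against 8.88 to 9.52 on D0 and 9.35 to 9.77 against 8.95 to 9.39 on D28. The mean level of the 8 type II markers was 14.56 to 14.67 in controls and 14.74 to 14.98 in exposed rats of D0, and that of the 6 type I markers 12.77 to 12.92 against 12.36 to 12.66. The macrophage list had 2 of 5 higher genes by adjusted p on D0 and 1 on D28, with mean levels of 8.33 to 8.68 against 8.80 to 9.16 and of 8.21 to 8.72 against 8.49 to 9.01. Of the type II list 1 gene passed on D0 (Sftpd, higher) and of the type I list 2 (Aqp5 and Cav1, lower). The 6 endothelial markers were all lower on both days, and 1 passed on D28 (Tek, -0.46, adjusted p = 0.0246). Of 6 neutrophil and 8 hepatocyte markers 0 passed on either day by limma, with 0 and 1 at an unadjusted p below 0.05 on each day. Of all genes tested, 2.86% passed the adjusted p on D0, 1.32% on D28 and 6.55% over the mean of both days. At an unadjusted p below 0.05 there were 2751 of all 23030 genes on D0, 2534 on D28 and 3966 over that mean. The part of cell numbers in the P450 differences was not tested.

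Cyp2c23, which makes epoxides from arachidonic acid, was the P450 gene called on D28. Its control rats of D28 had 9.91, 10.11 and 10.62 as lowest, median and highest value, and the exposed rats 10.51, 10.77 and 11.12. The groups overlapped through control replicate 4, and the other 5 control arrays were below all exposed ones. The difference was 0.63 (standard error 0.12, n = 6 and 6), a 1.55-fold higher signal with an adjusted p of 0.0105. On D0 it was 0.15 (adjusted p = 0.814), with 10.49, 10.72 and 10.88 in controls and 10.93, 11.13, 10.90, 10.49 and 10.86 in exposed rats. The exposed rats of D28 were near the controls of D0, whose mean was 10.71, and the controls of D28 were the group apart, at 10.17. The test of the change between the days gave 0.48 with an adjusted p of 1. Within slides, Cyp2c23 was higher in exposed rats on each of 3 slides on D28 (0.61 to 0.83). With only the D28 arrays in the fit its adjusted p was 0.103. The difference fell under the FC limit without control D28 replicate 6 (0.58, adjusted p = 0.0273) or exposed D28 replicate 5 (0.56, adjusted p = 0.0281).

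The other arachidonic and fatty acid P450 genes gave 0 calls on either day by limma, with 1 at an unadjusted p below 0.05 on each (Cyp4a3 on D0 and Cyp4a8 on D28). Of all 23030 genes tested, 2751 on D0 and 2534 on D28 were below that limit. Of 25 measured genes, 14 were higher and 11 lower on D0, with a median of 0.03, and 17 were higher and 8 lower on D28, with a median of 0.06. Cyp2j3 and Cyp2j4, arachidonic acid epoxygenases, had differences of -0.17 and -0.15 on D0 and of 0.00 and 0.04 on D28. Cyp4a1, a fatty acid hydroxylase, was well above background on 14 arrays, with a difference of 0.54 on D0 (adjusted p = 0.496). Probes of Cyp4f5 and Cyp4f37 shared a run of 38 bases and those of Cyp2d1 and Cyp2d5 a run of 55, so the values of each pair may come from shared transcripts.

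Cyp4a3 and Cyp4a8, fatty acid hydroxylases, were called lower over the mean of both days, and both calls rested on signals near background. Cyp4a3 had 2 probes and was well above background on 4 of 6 control and 1 of 5 exposed arrays of D0, and on 4 of 6 control and 0 of 6 exposed arrays of D28. On D28 its measured difference was -0.57, which did not pass (adjusted p = 0.493). No least fold change can be given, as some control arrays were near background too. Its mean over both days was -0.73 (adjusted p = 0.0388), and the adjusted p was above 0.05 (0.0514 to 0.0683) when any of 14 of the 23 arrays was left out. These were control D0 replicates 2, 3, 4 and 6, exposed D0 replicates 1 to 4, control D28 replicate 2 and exposed D28 replicates 2 to 6. With normexp background correction the difference was -0.13 (adjusted p = 0.0683) and with the deposited values -0.23 (adjusted p = 0.0529). It was also above 0.05 with 75th percentile scaling (adjusted p = 0.139) and the replicate block (adjusted p = 0.0655).

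Cyp4a8 had 3 probes, and its gene mean gave -0.62 (adjusted p = 0.0217). Of these, 2 probes were well above background on 1 and 3 arrays and gave -0.95 and -1.17. The third was well above background on all 23 arrays and gave 0.26, the opposite sign. With that probe alone, Cyp4a8 was not called. The gene mean was -0.02 with normexp background correction (adjusted p = 0.97) and -0.09 with the deposited values (adjusted p = 0.756).

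Cyp51, the lanosterol demethylase of cholesterol synthesis, was higher in exposed rats over the mean of both days (0.59, adjusted p = 0.0122). Its FC was at the limit of 1.5, and was under it without control D0 replicate 6, exposed D0 replicates 1 or 3, control D28 replicates 4 or 5, or exposed D28 replicate 4. On D0 the controls had 10.24, 10.94 and 11.06 and the exposed rats 11.62, 11.46, 11.72, 11.30 and 11.17. The exposed arrays of D0 were all above the controls, and the difference was 0.62 (standard error 0.20, adjusted p = 0.130). That p was 0.0193 with array quality weights and 0.0443 without exposed D28 replicate 4. On D28 the controls had 10.02, 10.61 and 10.88 and the 6 exposed rats 10.91, 11.08, 10.82, 11.96, 10.69 and 11.10, with 4 of 6 exposed arrays above all controls. That difference was 0.56 (standard error 0.20, adjusted p = 0.214). Its 2 probes gave 0.67 and 0.57 on D0 and 0.63 and 0.48 on D28.

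The other genes of cholesterol synthesis stood on the same side. Of 18 measured, 18 were higher on D0 and 17 on D28, with medians of 0.35 and 0.43, against -0.001 and -0.005 over all genes. By adjusted p, 3 passed on D0 and 3 on D28, all higher, against 2.86% and 1.32% of all genes. The baseline moved too: in control rats 17 of the 18 were lower on D28 than on D0, with a median of -0.40. None passed the adjusted p and 13 had an unadjusted p below 0.05, against 3055 of all 23030 genes. The mean level of the list was 9.83 in controls and 10.16 in exposed rats of D0, and 9.44 and 9.87 on D28. Cyp51 itself had -0.30 between the control groups (adjusted p = 0.546). Msmo1, the enzyme that follows Cyp51 in the removal of methyl groups from the sterol ring, had 0.47 on D0 (adjusted p = 0.0370) and 0.46 on D28 (adjusted p = 0.0489). In the sterol and bile acid group of P450 genes, 4 of 6 measured were higher on D0 and 3 of 6 on D28, and Cyp51 was the only one called in any comparison.

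Cyp26a1 and Cyp26b1, which clear retinoic acid, had large differences that did not pass the test. Cyp26a1 on D0 had 6.05, 6.22 and 6.86 in controls and 5.89, 5.93, 5.73, 4.98 and 5.48 in exposed rats, without overlap. Its difference was -0.69 (standard error 0.20, adjusted p = 0.0603), and it was 0.06 on D28. Without control D28 replicate 5 the adjusted p of D0 was 0.0273. Cyp26b1 on D28 had 10.55, 11.89 and 12.51 in controls and 9.93, 10.70 and 11.33 in exposed rats, and the groups overlapped. Its difference was -0.95 (standard error 0.31, adjusted p = 0.171) on D28 and -0.46 on D0 (adjusted p = 0.725). Over the retinoid and vitamin D group, 5 of 6 measured genes were lower on D0 and 3 of 6 on D28.

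In the remaining groups the gene with the smallest p of each day did not pass either. Cyp21a1, the steroid hydroxylase of the adrenal cortex, had 0.35 on D0 (adjusted p = 0.402). Cyp11a1, which cleaves the side chain of cholesterol, had -0.38 on D28 (adjusted p = 0.507), where its probe detected on all arrays gave 0.05. Cyp3a9 had -0.25 on D0 (adjusted p = 0.301), and Cyp2g1, an olfactory P450, had -0.60 on D28 (adjusted p = 0.348), where its probe detected on all arrays gave 0.00. Cyp2ab1 on D0 (-0.03) and Cyp2t1 on D28 (-0.12) were near 0, with adjusted p of 0.996 and 0.780.

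P450 enzymes depend on redox partners and haem. Of 7 measured redox partner genes, 0 passed the adjusted p on D0 or D28 by limma, and 1 had an unadjusted p below 0.05 on each day. Over all 23030 genes tested, 2.86% passed on D0 and 1.32% on D28, and 2751 and 2534 had an unadjusted p below 0.05. Por, the reductase that supplies electrons to microsomal P450 enzymes, had -0.03 on D0 (adjusted p = 0.996) and 0.18 on D28 (adjusted p = 0.826). Of 11 genes of haem synthesis and breakdown, 0 passed on either day, with 3 and 2 at an unadjusted p below 0.05. Over the mean of both days 1 of the 11 passed, against 6.55% of all genes. This was Hmox1, which degrades haem and was higher (0.62, adjusted p = 0.00954). A list of 11 nuclear receptor genes held the xenobiotic receptors Nr1i2 and Nr1i3 and receptors of other ligands. Of the 11, 1 passed on D0 and none on D28, against 2.86% and 1.32% of all genes. Nr1h3, not a xenobiotic receptor, was the gene that passed (0.27, adjusted p = 0.0345). Nr1i2 had a mean of 6.58 in both groups of D0, and Nr1i3 was near background. Over the mean of both days 2 of the 11 passed, both lower, against 6.55% of all genes. The 2 P450 enzymes under other symbols, Ptgis and Tbxas1, which make prostacyclin and thromboxane, did not pass on either day.

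Other enzymes of foreign compound metabolism were mostly lower in exposed rats. Of 20 measured, 15 were lower on D0 and 15 on D28, with medians of -0.19 and -0.26. Against 2.86% of all genes tested, 3 passed the adjusted p on D0, all lower. These were Aldh1a7 (-0.76, adjusted p = 0.0130), Gsta3 (-0.65, adjusted p = 0.0406) and Aldh1a1 (-0.47, adjusted p = 0.00526), an aldehyde dehydrogenase that makes retinoic acid. On D28 Aldh1a1 was the only one (-0.35, adjusted p = 0.0486), against 1.32% of all genes tested.

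Control rats breathed filtered air at both times, and comparing those of D28 with those of D0 shows how far the baseline of these genes moved. In that comparison 3 of 68 P450 genes were called, Cyp2a3, Cyp2b21 and Cyp2e1, against 0.608% of all genes. By adjusted p alone 5 passed, with Cyp3a9 and Cyp2c23, against 0.877%. All 5 were lower on D28. In 4 of 68 (Cyp2a3, Cyp2b21, Cyp2e1 and Cyp3a9) the groups did not overlap, against 1.62% of all genes. The median over the 68 genes was -0.122, against -0.006 over all genes, with 44 lower and 24 higher. Time after exposure, age and the day of sampling moved together here and cannot be told apart.

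Cyp2a3 was 3.76-fold lower in the control rats of D28 than in those of D0, a difference of -1.91 (standard error 0.31, adjusted p = 0.0024). All 6 control arrays of D28, with the values given above, lay below all 6 of D0. Cyp2b21, of the same gene cluster, had 7.61, 8.07 and 8.34 in controls of D0 and 6.14, 6.83 and 7.34 in those of D28, a difference of -1.21 (standard error 0.23, adjusted p = 0.010). Its exposed rats of D0 had 7.83, 8.04, 7.51, 7.37 and 8.0, and those of D28 had 5.98, 6.98 and 7.60. The exposure differences of Cyp2b21 were -0.27 and 0.11, with adjusted p of 0.839 and 0.937.

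Cyp2e1, which oxidises ethanol and small solvents, had 9.62, 9.84 and 10.11 in controls of D0 and 8.37, 8.85 and 9.06 in those of D28. The difference was -1.02 (standard error 0.18, adjusted p = 0.00522). The exposed rats had 10.41, 9.92, 9.80, 9.59 and 10.56 on D0 and 8.46, 9.23 and 9.54 on D28, with exposure differences of 0.22 (adjusted p = 0.819) and 0.33 (adjusted p = 0.541). Cyp3a9, a Cyp3a enzyme also found outside the liver, had 9.93, 10.06 and 10.22 in controls of D0 and 9.31, 9.56 and 9.59 in those of D28, a difference of -0.57 (standard error 0.10, adjusted p = 0.00522). Cyp2c23 was lower by adjusted p as well, at -0.54 (adjusted p = 0.0336), and its controls overlapped through replicate 4 of D28. That adjusted p was above 0.05 when any of control D0 replicates 1 to 5 or control D28 replicates 2, 3, 5 and 6 was left out (differences of -0.55 to -0.49, adjusted p from 0.0585 to 0.0886). It was also above 0.05 with only the arrays compared (0.0805) and with the replicate block (0.0678). Within the 3 slides that held both control groups, Cyp2a3 (-2.73 to -1.41), Cyp2b21 (-1.39 to -0.67), Cyp2e1 (-1.16 to -0.74), Cyp3a9 (-0.78 to -0.56) and Cyp2c23 (-0.81 to -0.58) were lower on D28 on each.

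**Figure D4:**
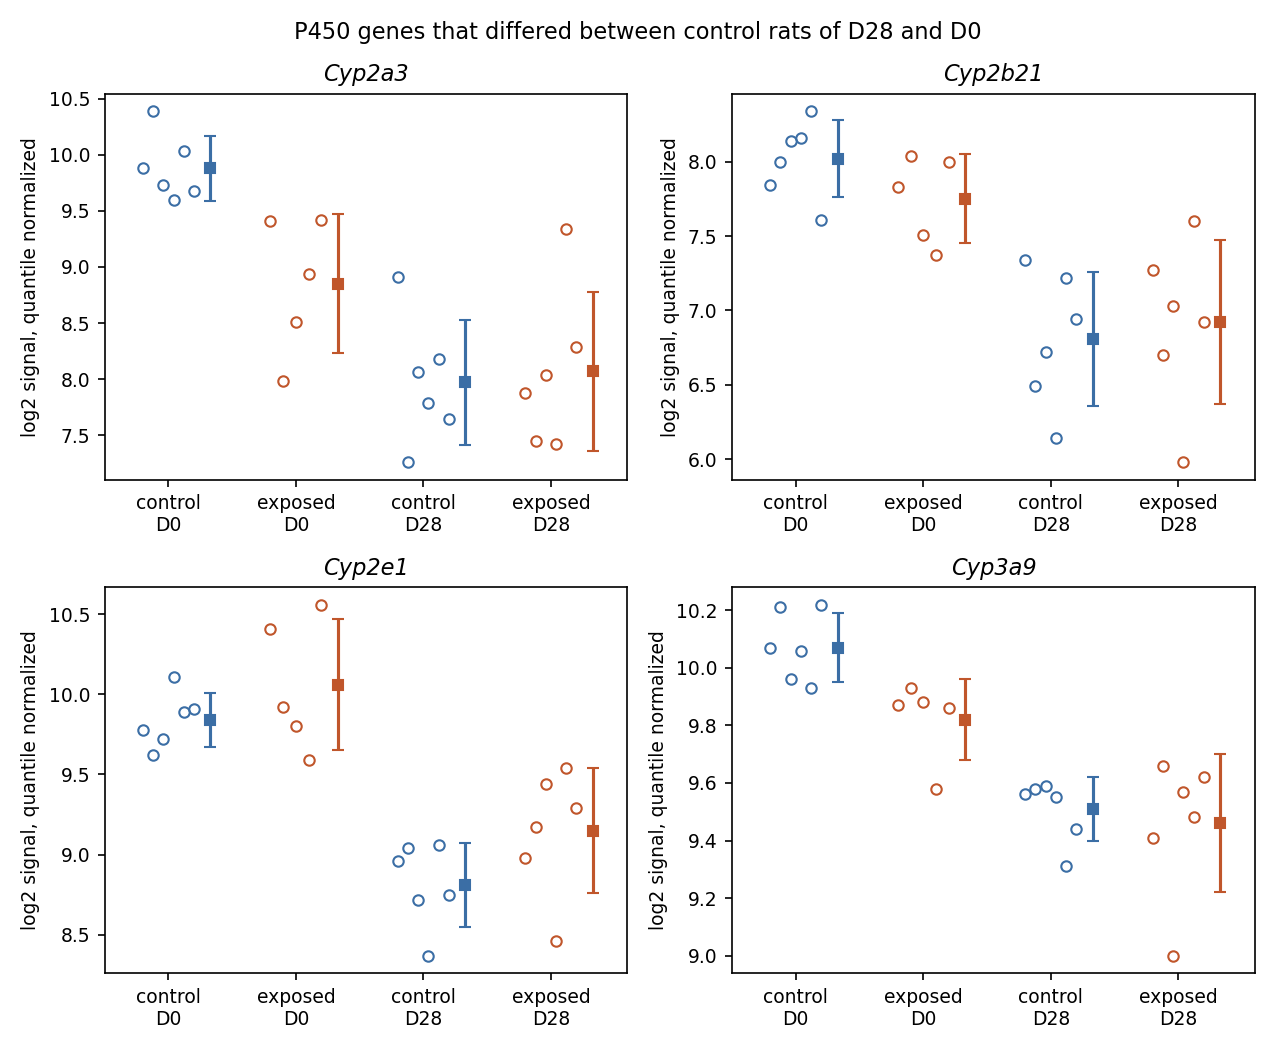
Log2 quantile normalized signal (vertical axis, a separate scale for each gene) of Cyp2a3, Cyp2b21, Cyp2e1 and Cyp3a9 on every array of the 4 groups (open circles), with the group mean and SD (squares with bars). For each gene the 6 control arrays of D28 lay below the 6 of D0, with differences of -1.91, -1.21, -1.02 and -0.57.

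Of these 5 genes, Cyp2b21 and Cyp2a3 belong to a run of Cyp2 genes. In the RefSeq order of protein-coding genes on chromosome 1, 12 measured P450 genes fall within a run of 18 genes from Cyp2s1 to Cyp2t1. Of these, 8 were well above background on all arrays, and 6 of the 8 were lower in the control rats of D28. Besides Cyp2a3 and Cyp2b21, Cyp2b2 had -0.53 (adjusted p = 0.185), Cyp2b3 -0.85 (adjusted p = 0.355), Cyp2f4 -0.45 (adjusted p = 0.205) and Cyp2t1 -0.09 (adjusted p = 0.803). Cyp2s1, at the start of the run, had 0.21 (adjusted p = 0.413). Cyp2g1 had 0.19 as the mean of 2 probes, and its probe detected on all arrays gave -0.71. Cyp2e1, Cyp3a9 and Cyp2c23 lie outside this run.

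**Figure D5:**
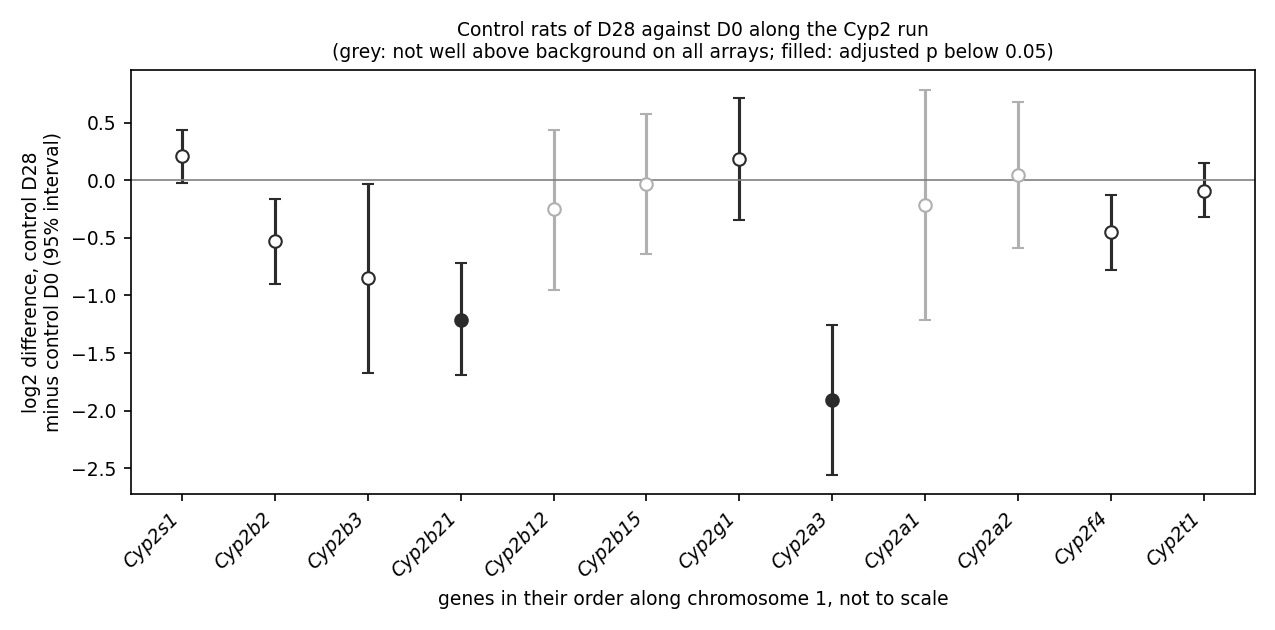
Log2 difference between control rats of D28 and D0 (vertical axis, points with 95% intervals) for 12 P450 genes in their order along chromosome 1 (horizontal axis, not to scale). Black points were well above background on all arrays by at least 1 probe and grey ones were not. Cyp2g1 is the mean of 2 probes, of which 1 was well above background on 1 array only. Cyp2b21 (-1.21) and Cyp2a3 (-1.91), filled, passed the adjusted p, and the others did not.

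Genes of the circadian clock moved in the same comparison. Of 10 genes of the Nr1d1 arm of the clock, 7 were called lower in the control rats of D28 than of D0, and of 5 genes of the Arntl arm, 3 were called higher. The mean level of the Nr1d1 list was 8.87 to 9.15 in controls of D0 and 7.32 to 7.60 in controls of D28. It was 7.87 to 8.68 in exposed rats of D0 and 7.93 to 9.15 in exposed rats of D28. With exposure, 4 of the 10 were called higher and none lower on D28, and 1 higher and 2 lower on D0. Of all genes tested, 0.608% were called between the controls, 0.756% with exposure on D28 and 1.79% on D0. The 5 P450 genes that were lower in the later controls did not share 1 order of the 4 groups. Cyp2c23 was low in the controls of D28 alone, whereas Cyp2a3, Cyp2b21, Cyp2e1 and Cyp3a9 were low in exposed rats of D28 too. The means of Cyp2c23 in control and exposed rats were 10.71 and 10.86 on D0 and 10.17 and 10.80 on D28. Those of the Nr1d1 list were 9.03 and 8.30 on D0 and 7.44 and 8.44 on D28. The haem list (10.45) and the cholesterol list (9.44) also had their lowest group mean in the controls of D28. The hour of sampling is not given in the sources used here, and the part of the clock in the P450 differences was not tested.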

How the data were processed

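Lung RNA of 23 rats was hybridised to 1-colour Agilent rat arrays, and the authors deposited the scanner output of each array, whose values are spot intensity already background-subtracted by the scanner software. Agilent Feature Extraction 11.0.1.1 is named in the submitters' processing notes, and the files give it for 22 arrays and a later version for 1. The authors also deposited quantile normalized intensity values of all arrays (62976 rows), which served as an alternative. On each array these values followed the order of the median spot signal, which is not background-subtracted (lowest Spearman correlation 0.99997).

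Here the processed signal was quantile normalized over all 23 arrays as log2 values, control spots were left out, and probes were kept if above the 95th percentile of 308 negative control spots on at least 5 arrays (40418 of 45598 probes). Probes of a gene were averaged, which left 23030 genes (29 were dropped for a missing value). The 4 groups were fitted together in limma 3.58.1 (R 4.3.3, data.table version 1.17.8) with 19 residual degrees of freedom, and p-values were adjusted by Benjamini-Hochberg over all genes in each of 5 comparisons. The 5 comparisons share arrays. The mean of both days is the mean of both exposure differences, and their difference is the change between the days. Figures were drawn with matplotlib 3.10.9. The fit was tested on simulated data.

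The genes given with full statistics were Cyp1a1, Cyp2a3, every P450 gene with an adjusted p below 0.05 in any comparison, and, in each role group, the gene with the smallest p on each exposure day among those well above background on most arrays. The P450 genes, the role groups and the 17 other gene lists were chosen with earlier results of these data known. Precision is limited by the number of arrays. All 78 symbols were found in RefSeq (GRCr8). No column of the deposited tables was of another series (0 unused). Alternatives covered scaling, background correction, the deposited table, filters, probe choice, arrays in the fit, variance model, array weights, slide, replicate block, fold limit and leaving out each array.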

Additional observations from a re-analysis of the deposited data

Results flagged for a closer look

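In 11 of 76 groups of arrays, over the 19 P450 genes given with full statistics, the highest or lowest array lay far from the others by Dixon's test. Chance alone gives about 1 in 20 where groups are independent and values normally spread. The groups here share their arrays and some values are near background, so that share is only a rough guide. The values are log2 signals, and no cause was tested.

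For Cyp4b1, control D28 replicate 4 had 13.11, with the next array at 13.78. For Cyp51, control D0 replicate 6 had 10.24 (next 10.83) and exposed D28 replicate 4 had 11.96 (next 11.10). For Cyp3a9, exposed D0 replicate 4 had 9.58 (next 9.86) and exposed D28 replicate 3 had 9.0 (next 9.41). Cyp26a1 in control D0 replicate 6 was the highest of its group at 6.86 (next 6.32).

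Cyp4a3 in control D28 replicate 1 was the highest at 4.88 (next 3.34), and Cyp2g1 in control D28 replicate 5 was the highest at 5.14 (next 4.03). Cyp4a1 in the same array was the lowest at 3.47 (next 4.03), a value not well above background. Cyp2ab1 in control D0 replicate 2 had 5.84 (next 6.32) and Cyp11a1 in control D0 replicate 5 had 4.84 (next 5.50), the lowest of their groups.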

How the results depend on the processing

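Cyp4b1 on D0 and Cyp2a3, Cyp2b21, Cyp2e1 and Cyp3a9 in the control comparison kept their direction and an adjusted p below 0.05 under all 12 other settings of the fit and without any of the 23 arrays. For the mean of both days, 4 P450 genes were called, and this became 2 with 75th percentile scaling (Cyp4b1 and Cyp51), 2 with normexp background correction or the deposited table (Cyp4b1 and Cyp26b1) and 2 with a replicate block (Cyp4b1 and Cyp4a8). The 1 call of D0 became 2 with the filter on probes well above background (adding Cyp26a1), with the brightest probe (adding Cyp4a3) or with no FC limit (adding Cyp2s1), and 3 with array quality weights (adding Cyp2a3 and Cyp51). The 1 call of D28 became 2 with the brightest probe, array weights or the slide block (adding Cyp4b1), with the median of the probes (adding Cyp4a8) or with no FC limit (adding Cyp2s1), and 0 with only the arrays compared. The 3 calls of the control comparison became 5 with the brightest probe (adding Cyp2g1 and Cyp4b1), and 5 with the slide block or no FC limit (adding Cyp2c23 and Cyp3a9). Leaving out 1 array gave 1 to 2 calls on D0, 0 to 2 on D28, 1 to 4 over both days and 3 to 4 between the controls. The D0 count was 2 without control D28 replicates 1 or 5 or exposed D28 replicates 4 or 5. The D28 count was 0 without control D28 replicate 6 and 2 without control D28 replicates 3 or 4 or exposed D28 replicate 3. The count over both days was 1 without exposed D0 replicate 1, and 2 without control D0 replicate 6, exposed D0 replicates 2 or 3, or exposed D28 replicate 6. The causes were not tested.

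Signs turned for 8 genes. Cyp4a8 became 0.26 over both days, 0.17 on D0 and 0.35 on D28 with the well above background filter or the brightest probe, which keep its bright probe, and Cyp1b1 on D0 became 0.22 and Cyp11a1 on D28 0.05 under the same settings. Cyp2g1 on D28 became 0.03 with that filter. Cyp2ab1 on D0 became 0.06 with normexp, 0.04 with the deposited table, 0.19 with the brightest probe and 0.00 with the slide block, and Cyp2b21 on D28 became -0.08 with the slide block. Without 1 array, the D28 differences of Cyp2a3 (-0.16 to 0.28), Cyp2b21 (-0.03 to 0.30) and Cyp3a9 (-0.09 to 0.04) and the D0 difference of Cyp2ab1 (-0.16 to 0.13) spanned 0.

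Over all genes, the D0 calls numbered 221 with normexp, 298 with the deposited table and 610 with array weights against 412. The D28 calls numbered 42 with only the arrays compared and 94 with normexp against 174, and those over both days 144 with normexp against 430. Arrays with the same replicate number were not treated as pairs in the main fit. Of 33 pairs of arrays with the same number, 12 had deviations correlated above 0.1 (-0.301 to 0.455). Arrays of different numbers were not compared, so these values cannot tell whether the rats were paired. With the replicate block Cyp4b1 was called on D0 and Cyp2c23 on D28 as without it. The adjusted p rose above 0.05 for Cyp2s1 on D28 (0.0791), Cyp2c23 between the controls (0.0678) and Cyp4a3 over both days (0.0655). It fell below 0.05 for Cyp2f4 on D0 (0.0427). Genes near background have no reliable fold change.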
